A study of Homo sapiens with 18 samples.

Results

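The secreted cytokines and chemokines described here are 10 genes of the 38716 gene symbols measured: CXCL8, CXCL1, CXCL2, CXCL12, CCL2, IL1A, IL1B, IL6, LIF and PTX3. They were chosen by name, as factors that senescent fibroblasts are known to release, and all 10 were listed under these symbols. They were followed in 18 libraries of IMR90, a fibroblast line derived from human fetal lung. Ribo-seq counted ribosome footprints, the mRNA pieces that ribosomes shield from nuclease, and mRNA-seq counted fragments of poly(A)+ RNA. Each assay had 9 libraries, 3 for each condition. Proliferating cells at low passage are called young, and replicatively senescent cells at high passage are called old. Low-passage cells given inflachromene, a compound whose targets are the nuclear proteins HMGB1 and HMGB2, are called ICM, and no library carried a genetic change. The labels gave neither dose nor duration of ICM for these libraries, while the study's text describes a treatment of several days, and whether young cells received vehicle was not stated for them. Per the study's methods the 3 cultures of a condition were grown independently and each lysate was divided between both assays. IMR90 comes from a single donor lung. The study's text places its senescence data in earlier work while its methods describe all 3 conditions together, and if the old libraries were prepared apart, batch and condition cannot be told apart for them.

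Senescent cells stop dividing but stay active, and release inflammatory proteins collectively named the senescence-associated secretory phenotype. In this programme interleukin 1 alpha at the cell surface is known to signal through its receptor to NF-kappaB and C/EBP beta, which in turn drive IL6, CXCL8 and related chemokines. Such cytokine mRNAs are typically short-lived, because AU-rich elements in their 3′ UTRs attract proteins that shorten the poly(A) tail. HMGB1 itself can leave the nucleus and act as an alarm signal outside the cell.

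Depth decided what could be seen. The mRNA-seq libraries held 7902427 to 14144455 reads in coding genes, and the 10 genes together held 2447 to 4846 of them per library. The Ribo-seq libraries held 46239 to 1718521 reads in coding sequence (CDS), and the 10 genes held 14 to 1138. Without PTX3, the remaining 9 genes held 14, 8 and 0 footprints in the 3 ICM libraries. Young replicate 1 and old replicate 2 stood apart in Ribo-seq, with 34.4% and 15.0% of reads in the CDS against 54.7% or more elsewhere. The cells carried the fibroblast markers they should. The summed level of 10 such markers was 29202 to 33180 counts per 1000000 reads in genes (CPM) in young, 27797 to 31259 in old and 12478 to 12992 in ICM mRNA-seq libraries, with none at 0. Against young cells, 8 of the 10 fell in ICM, COL1A1 by 2.24 on the log2 scale, where 36.1% of all genes fell. The part of this fall in the values below was not tested. The 8 myeloid markers summed to at most 1.85 CPM in any mRNA-seq library, with AIF1 and FCGR3A at 0 in all. The 6 lymphoid markers summed to at most 0.451 CPM, with CD3D, CD3E, CD2 and NKG7 at 0. The 6 endothelial markers summed to 51.9 to 107 CPM, nearly all from TEK, with CDH5 at 0. The 6 epithelial markers summed to 3.05 to 21.4 CPM, mostly from MUC1. In such bulk libraries, fewer cells that make a transcript and less transcript per cell cannot be told apart.

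The upstream DNA of the genes was read for letters that resemble the sites of the factors named above. RefSeq start sites were available for 8 of the 10 genes, and LIF and CCL2 were not in that table. For CXCL8 and the near-identical CXCL1 and CXCL2, whose mRNAs rose in ICM cells, for IL6, which shares letters with them but fell, and for PTX3 and CXCL12, which moved in opposite ways in old and ICM cells, the 250 bases before the RefSeq start are shown 5′ to 3′ on the gene's strand. The gene spans given further on cover all annotated transcripts, so that the start used here lies inside the span of IL6, CXCL8 and CXCL12. Coordinates are GRCh37, from an exact and single match to that genome, and capitals mark the letters found.
CXCL8, chr4:74606036-74606285, plus strand: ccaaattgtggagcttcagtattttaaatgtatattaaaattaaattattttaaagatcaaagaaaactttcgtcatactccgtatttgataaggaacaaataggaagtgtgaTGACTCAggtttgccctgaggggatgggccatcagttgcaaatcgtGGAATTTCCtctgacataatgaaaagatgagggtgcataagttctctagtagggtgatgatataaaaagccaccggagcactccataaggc
CXCL1, chr4:74734860-74735109, plus strand: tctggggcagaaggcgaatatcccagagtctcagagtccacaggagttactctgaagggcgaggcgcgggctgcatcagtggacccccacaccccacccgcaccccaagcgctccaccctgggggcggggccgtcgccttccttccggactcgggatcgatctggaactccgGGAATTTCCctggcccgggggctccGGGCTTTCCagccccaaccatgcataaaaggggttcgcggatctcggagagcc
CXCL2, chr4:74964913-74965162, minus strand: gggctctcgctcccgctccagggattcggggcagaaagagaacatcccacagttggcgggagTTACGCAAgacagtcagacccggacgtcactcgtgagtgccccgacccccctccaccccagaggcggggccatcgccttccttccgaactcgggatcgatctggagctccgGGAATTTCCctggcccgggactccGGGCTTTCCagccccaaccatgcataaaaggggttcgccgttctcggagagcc
IL6, chr7:22766569-22766818, plus strand: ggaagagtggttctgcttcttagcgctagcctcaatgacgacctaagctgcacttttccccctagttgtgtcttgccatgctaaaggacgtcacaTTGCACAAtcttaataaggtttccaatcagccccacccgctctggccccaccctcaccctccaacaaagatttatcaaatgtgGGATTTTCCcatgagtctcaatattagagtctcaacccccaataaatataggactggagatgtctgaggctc
PTX3, chr3:157154389-157154638, plus strand: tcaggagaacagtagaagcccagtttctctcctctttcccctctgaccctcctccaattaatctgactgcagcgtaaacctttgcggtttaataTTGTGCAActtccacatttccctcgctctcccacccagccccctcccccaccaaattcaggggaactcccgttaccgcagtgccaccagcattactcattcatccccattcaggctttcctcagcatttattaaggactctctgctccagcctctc
CXCL12, chr10:44880546-44880795, minus strand: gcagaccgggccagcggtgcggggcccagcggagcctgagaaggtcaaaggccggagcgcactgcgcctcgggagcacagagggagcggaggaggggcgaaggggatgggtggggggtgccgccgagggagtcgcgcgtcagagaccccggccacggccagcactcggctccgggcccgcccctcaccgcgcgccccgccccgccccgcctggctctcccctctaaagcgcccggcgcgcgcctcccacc

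Motifs were searched on both strands, as GGNNTTTCC for NF-kappaB-like, TGANTCA for AP-1 and TTGCNNAA for C/EBP-like letters, and no match overlapped another. The letters were chosen after these windows had been read. CXCL1 and CXCL2 each held 2 NF-kappaB-like matches, the first base of each lying 78 and 53 bases upstream of the start in CXCL1 and 77 and 53 bases in CXCL2. CXCL8 held one at 91 bases and IL6 one at 72 bases. These 4 of 8 genes compare with 5.48% of 35116 RefSeq windows of this length. AP-1 letters were in CXCL8 and IL1A, 2 of 8 genes, against 6.57% of windows. C/EBP-like letters were in CXCL2, IL1B, IL6 and PTX3, 4 of 8 genes, against 9.05%. The CXCL8 window held ttgcaaat, which departs from the C/EBP-like pattern in its last letter and was not counted. A fixed pattern can miss a site. The CXCL12 window held none of the 3. The shares set genes against windows, of which a gene can have several, and CXCL1 and CXCL2 are copies rather than separate cases. They are therefore no test of enrichment. A match describes letters only, and these libraries did not measure binding.

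CXCL1 and CXCL2 are near-identical copies. Their coding sequences were both 324 bases long with 93.5% of bases identical, and that of the neighbouring CXCL3 shared 90.7% and 94.4% with them. Bases 58 to 237 of the 2 coding sequences (GENCODE 44, lifted to GRCh37) are shown 5′ to 3′, with the 7 differing bases in capitals, because reads of this stretch decide which gene is counted.
CXCL1: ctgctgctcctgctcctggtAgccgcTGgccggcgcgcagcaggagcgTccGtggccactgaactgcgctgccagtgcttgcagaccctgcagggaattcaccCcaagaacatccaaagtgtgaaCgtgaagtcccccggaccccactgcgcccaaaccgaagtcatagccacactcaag
CXCL2: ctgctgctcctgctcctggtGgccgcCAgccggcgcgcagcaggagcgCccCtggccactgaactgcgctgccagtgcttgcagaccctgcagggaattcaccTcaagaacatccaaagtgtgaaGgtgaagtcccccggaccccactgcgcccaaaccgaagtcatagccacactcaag
Of 295 windows of 30 bases in the CXCL2 coding sequence, about the length of a footprint, 44.4% also occurred in CXCL1 or CXCL3 transcripts. Of 275 windows of 50 bases, a length set here for comparison, 22.5% did. For CXCL1 the shares were 20.3% and 5.09%. The deposited counts of both genes were partly fractions, as were other values in every library, and how the fractions arose was not stated. With so much shared sequence, values of either gene alone are uncertain.

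CXCL8, CXCL1 and CXCL2 encode neutrophil-attracting chemokines that act through CXCR2. CXCL8 (chr4:74606236-74609433) held 15, 10 and 10 mRNA-seq reads in the young libraries, 93, 184 and 299 in the old and 226, 197 and 193 in the ICM libraries. Scaled to depth these were 1.23 ± 0.549, 17.1 ± 9.36 and 17.2 ± 0.949 CPM (SD, n = 3). Every old and ICM library lay above every young one, and the 3 old libraries differed among themselves, from 9.999 to 27.7 CPM, more than the ICM ones did. The increase over young was 3.86 on the log2 scale in both ICM and old cells (SE 0.37 each; edgeR quasi-likelihood test, adjusted p = 3.34e-09 and 5.25e-09), a 14.6-fold difference. ICM and old cells differed by -0.00016 (95% interval -0.43 to 0.43, adjusted p = 0.999 by edgeR). That near-equality rested on old replicate 3, without which ICM cells were 0.51 higher (adjusted p = 0.002).

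CXCL1 (chr4:74735110-74737025) was far lower. Its libraries held 5, 4 and 5 reads in young, 8, 20 and 26 in old and 22, 26 and 10 in ICM cells, or 0.482 ± 0.136, 1.58 ± 0.78 and 1.64 ± 0.779 CPM (SD, n = 3). Neither old nor ICM cells overlapped young cells, while the 2 groups overlapped each other. CXCL1 rose by 1.77, or by 2.95 with CDS reads alone, in ICM (SE 0.46, adjusted p = 0.0018 by edgeR) and by 1.76 in old cells (SE 0.47, adjusted p = 0.00232 by edgeR), and the difference between these 2 was 0.01 (95% interval -0.69 to 0.71). Pooled young, old and ICM cells held 3.83, 22.5 and 39 reads in the CDS, but 4, 12 and 9 in the 5′ UTR and 6, 19.5 and 9 in the 3′ UTR. The rise in ICM thus lay mainly in the CDS, which CXCL1 partly shares with its copies. How many of these reads came from CXCL2 or CXCL3 was not tested.

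CXCL2 (chr4:74962757-74964913) behaved less evenly. It held 1, 3 and 2 reads in young, 3, 2 and 37 in old and 21, 31 and 27 in ICM libraries. All 3 ICM libraries lay above the young range, whereas 2 of the 3 old libraries were within or near it. The rise in ICM was 3.39 (SE 0.81, adjusted p = 0.000792 by edgeR). Pooled young and ICM cells held 2.33 and 61.5 CXCL2 reads in the CDS, but 2 and 6.5 in the 5′ UTR and 1 and 11 in the 3′ UTR. That rise too lay mainly in the CDS, and how many of its reads came from CXCL1 or CXCL3 was not tested. The rise of 2.58 in old cells (adjusted p = 0.0193 by edgeR) came from old replicate 3 and was 0.13 without it (adjusted p = 0.899). Correspondingly, ICM against old was 0.81 (adjusted p = 0.178 by edgeR) with that library and 3.26 (adjusted p = 1.65e-06) without it. When CXCL1, CXCL2 and CXCL3 were summed as a single gene, the total rose by 4.00 in ICM (SE 0.43, adjusted p = 2.63e-08 by edgeR) and by 2.31 in old cells (SE 0.56, adjusted p = 0.000975 by edgeR), and ICM exceeded old by 1.70 (SE 0.30, adjusted p = 3.44e-05 by edgeR). Without old replicate 3 the sum was 1.29 for old against young (adjusted p = 0.00982 by edgeR) and 2.71 for ICM against old (adjusted p = 2.20e-10 by edgeR). Most of the ICM total was CXCL3, with 94, 129 and 104 reads against 6, 6 and 26 in old and 1, 1 and 2 in young libraries.

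**Figure D1:**
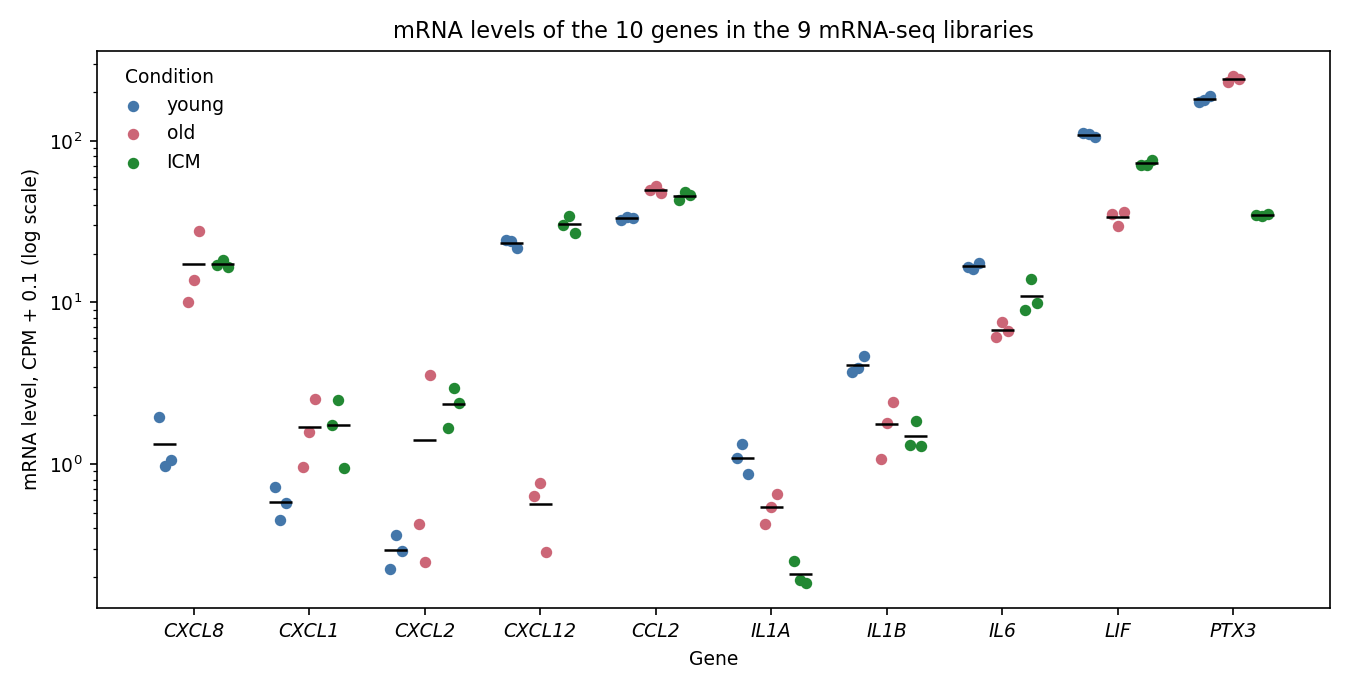
mRNA levels of the 10 genes (x axis) in CPM plus 0.1 on a log axis. Each point is a library, coloured by condition, and the bar is the mean of 3. CXCL8 sits at 9.999 to 27.7 CPM in old and 16.4 to 18.2 in ICM cells against at most 1.86 in young, CXCL12 is at most 0.667 CPM in old cells, and PTX3 is lowest in ICM.

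CXCL12 and CCL2 encode chemokines with other receptors. CXCL12 (chr10:44865613-44881941), which binds CXCR4 and holds stem and immune cells in place, held 195, 274 and 228 reads in young and 399, 371 and 317 in ICM libraries, but 5, 9 and 2 in old ones. Its level was 23.3 ± 1.34 CPM in young, 30.4 ± 3.74 in ICM and 0.463 ± 0.249 in old cells (SD, n = 3), with no overlap of any 2 groups. The fall in old cells was 5.58 on the log2 scale, or 47.7-fold (SE 0.22, adjusted p = 1.52e-15 by edgeR), and ICM cells rose slightly over young, by 0.38 (SE 0.10, adjusted p = 0.00173 by edgeR). ICM against old was the widest mRNA difference among the 9 genes tested, 5.96 (SE 0.20, adjusted p = 6.40e-17 by edgeR), a 62.2-fold difference.

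CCL2 (chr17:32582293-32584227), which attracts monocytes through CCR2, was an abundant transcript in all cells. It held 260, 386 and 347 reads in young, 460, 710 and 510 in old and 569, 522 and 546 in ICM libraries. Both old and ICM groups lay above young without overlap, by 0.59 in old (SE 0.08, adjusted p = 4.59e-07 by edgeR) and 0.47 in ICM cells (SE 0.08, adjusted p = 1.02e-05 by edgeR). Old and ICM cells overlapped, and ICM against old was -0.13 (95% interval -0.28 to 0.02, adjusted p = 0.132 by edgeR).

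The interleukin 1 genes were scarce in the mRNA of every condition. IL1A (chr2:113531502-113542070), the cytokine thought to start the secretory programme, held 8, 14 and 8 reads in young, 3, 6 and 6 in old and 2, 1 and 1 in ICM libraries, and did not pass the filter on low counts. In the edgeR fit without that filter it was lower in ICM than in young cells by 3.04 (adjusted p = 8.03e-06), and its values were -1.14 for old against young (adjusted p = 0.0289) and -1.90 for ICM against old (adjusted p = 0.0212). IL1B (chr2:113587328-113594393), which caspase 1 cuts to its active form, held 29, 44 and 48 reads in young, 9, 23 and 25 in old and 16, 19 and 14 in ICM libraries. Both old and ICM groups lay below young and overlapped each other. IL1B fell by 1.55 in ICM (SE 0.25, adjusted p = 8.11e-06 by edgeR) and by 1.24 in old cells (SE 0.24, adjusted p = 0.000101 by edgeR), and ICM against old was -0.31 (95% interval -0.92 to 0.30, adjusted p = 0.371 by edgeR).

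IL6 and LIF encode cytokines that share the receptor chain gp130. IL6 (chr7:22765503-22771621) held 132, 183 and 184 reads in young, 56, 100 and 71 in old and 118, 150 and 116 in ICM libraries, or 16.6 ± 0.82, 6.67 ± 0.701 and 10.9 ± 2.66 CPM (SD, n = 3). The 3 groups did not overlap, with young highest and old lowest. IL6 fell by 1.30 in old (SE 0.15, adjusted p = 6.06e-08 by edgeR) and by 0.63 in ICM cells (SE 0.13, adjusted p = 0.000212 by edgeR), so that ICM exceeded old by 0.67 (SE 0.15, adjusted p = 0.000577 by edgeR). Its transcript shares 53 exon bases of 1127 with the antisense gene IL6-AS1 and 46 with STEAP1B, and whether counting used strand was not stated.

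LIF (chr22:30636442-30642748), leukaemia inhibitory factor, followed the same order of conditions, at higher CPM values that are not scaled to transcript length. It held 900, 1271 and 1104 reads in young, 947, 763 and 895 in ICM and 328, 399 and 388 in old libraries, or 109 ± 3.5, 72.5 ± 2.91 and 33.6 ± 3.5 CPM (SD, n = 3). No groups overlapped. LIF fell by 1.71 in old (SE 0.08, adjusted p = 1.32e-14 by edgeR) and by 0.59 in ICM cells (SE 0.07, adjusted p = 1.04e-07 by edgeR), and ICM exceeded old by 1.12 (SE 0.08, adjusted p = 1.66e-11 by edgeR).

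PTX3 (chr3:157154639-157161422), a long pentraxin that coats microbes and joins the extracellular matrix, was the most abundant of the 10 in young and old cells. It held 1408, 2058 and 1994 reads in young, 2156, 3392 and 2615 in old and 464, 367 and 415 in ICM libraries, or 181 ± 7.86, 242 ± 9.85 and 34.7 ± 0.638 CPM (SD, n = 3). The groups were fully apart, and PTX3 moved in opposite directions in old and ICM cells. It rose by 0.42 in old (SE 0.06, adjusted p = 2.27e-06 by edgeR) and fell by 2.39 in ICM cells, or 5.23-fold (SE 0.07, adjusted p = 1.85e-18 by edgeR). ICM against old was -2.80 (SE 0.07, adjusted p = 1.13e-19 by edgeR). On the opposite strand, 71 exon bases of 1884 in PTX3 overlap VEPH1, and in LIF 86 of 3871 overlap LIF-AS1 and 83 overlap LIF-AS2.

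Of the 9 genes tested in the mRNA, 5 rose and 4 fell in ICM against young cells, the median being 0.38, while 71.0% of all 13173 genes tested were called in that comparison with a median of -0.01. In old against young cells 5 rose and 4 fell as well, with a median of 0.42, beside 66.1% of all genes called and a median of -0.01. Between ICM and old cells 3 rose (IL6, CXCL12 and LIF) and 1 fell (PTX3), with a median of 0.01, beside 63.3% called. These counts and medians depend on the filter. IL1A, which it left out, was -3.04 in ICM and -1.14 in old against young cells in the fit without a filter, and including it would lower each median. CXCL2, at 0.192 CPM in young and 2.24 in ICM cells, passed the filter through the ICM libraries. With most of the transcriptome called, being called did not set these genes apart, and their sizes and directions carry the description. Both comparisons with young cells share the same 3 young libraries. CXCL8, CXCL1 and CCL2 rose and IL1B, IL6 and LIF fell in both, CXCL2 rose in both but in old cells through replicate 3 alone, and CXCL12 and PTX3 went opposite ways. The CXCL1 and CXCL2 rises in ICM cells lay mainly in CDS reads, a region that these copies partly share with each other and with CXCL3.

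**Figure D2:**
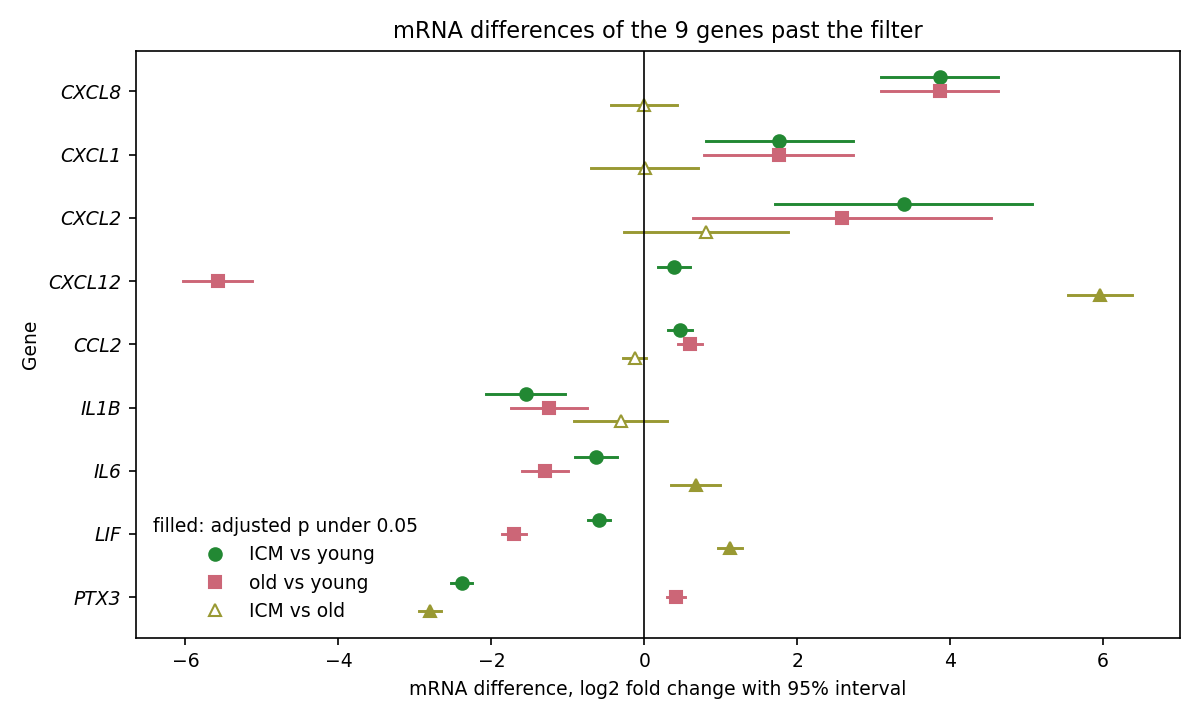
mRNA differences of the 9 genes past the filter, as log2 fold changes (x axis) with 95% intervals from edgeR. Symbols mark the comparison and are filled where the adjusted p was under 0.05. ICM against young and old against young coincide for CXCL8 at 3.86 and part for CXCL12 (0.38 and -5.58) and PTX3 (-2.39 and 0.42).

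Levels of different genes were ranked per length, as CDS reads per kilobase of coding length in a library scaled to CPM. The CPM values above are not scaled to transcript length. In young mRNA the order was PTX3 at 119 ± 4.72, CCL2 at 60.7 ± 8.11, LIF at 34.9 ± 2.31, CXCL12 at 23.0 ± 0.632 and IL6 at 20.6 ± 0.785 (SD, n = 3), with the remaining 5 genes at 3.03 or below. In old cells PTX3 at 166 ± 5.67 and CCL2 at 92.2 ± 4.87 still led, and CXCL8 came next at 17.7 ± 10.3, a spread that covers LIF at 10.4 ± 1.31 and IL6 at 8.54 ± 1.03. In ICM cells CCL2 led at 82.9 ± 16.9 and CXCL12 was next at 33.2 ± 4.44. PTX3 at 23.8 ± 0.636 and LIF at 23.2 ± 1.83 did not differ beyond their spread there. The lowest in old cells were IL1A at 0.248 ± 0.107 and CXCL12 at 0.316 ± 0.284, which did not differ beyond their spread. In ICM cells IL1A was the lowest of the 10, at 0.0685 ± 0.0602.

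Reads of the 10 genes did not fall evenly along their transcripts. LIF, whose canonical 3′ UTR is 3198 bases long against 609 bases of CDS, had 75.8%, 77.0% and 74.3% of its mRNA-seq reads in the 3′ UTR in young, old and ICM cells. CXCL12 had 71.3%, 75% and 68.2% there. For IL6 the share was 5.61%, 3.96% and 2.6%, and for PTX3 12.7%, 11.6% and 11.1%. CXCL8 had 31.4% of 35 reads in the 3′ UTR in young, 50.3% of 576 in old and 46.9% of 616 in ICM cells. CXCL2 in ICM cells had 77.8% of 79 reads in the CDS, the region that it shares with its copies. For CXCL1 that share was 27.7% of 13.8 reads in young, 41.7% of 54 in old and 68.4% of 57 in ICM cells.

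**Figure D3:**
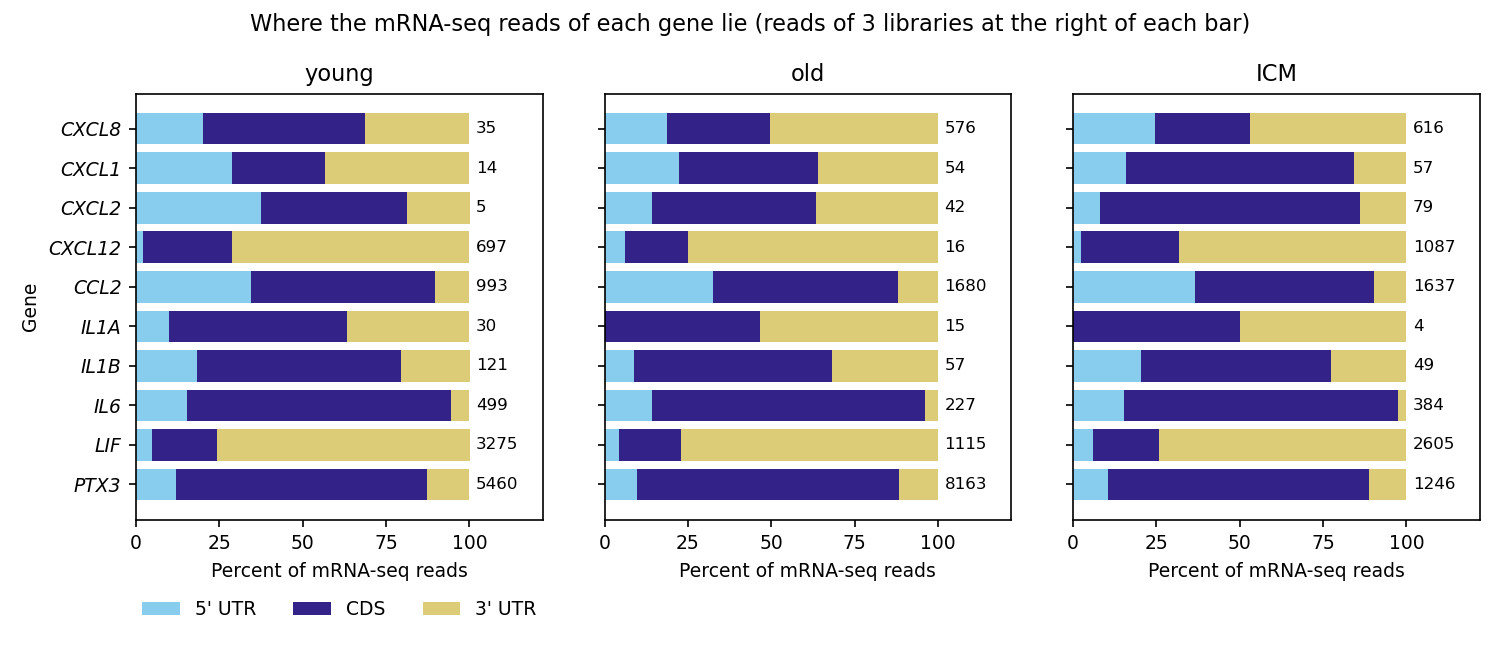
Share of mRNA-seq reads (x axis, percent) in the 5′ UTR, CDS and 3′ UTR of each gene in young, old and ICM cells, 3 libraries pooled, with the pooled reads at the right. LIF and CXCL12 keep 68.2% to 77.0% of reads in the 3′ UTR in all 3 conditions, and IL6 keeps at least 79.2% in the CDS.

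Footprints were few. Pooled over 3 libraries, young, old and ICM cells held 2458003, 2311313 and 350259 CDS reads, and 3 counts, the limit taken for a gene at 0, equalled 1.22, 1.30 and 8.56 RPM, where RPM is footprints per 1000000 CDS reads of the pooled libraries. Intervals below are exact 95% Poisson limits, and like that limit cover counting error only. PTX3 was the only one of the 10 to pass the Ribo-seq filter.

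CXCL8 had 1 footprint in young cells (0, 0 and 1 by library), 31 in old (21, 0 and 10) and 2 in ICM cells (2, 0 and 0). This was 0.407 RPM in young (interval 0.0103 to 2.27) and 13.4 in old cells (9.11 to 19.0), which did not overlap. The ICM value of 5.71 had an interval of 0.692 to 20.6 and could not be told from either, while the CXCL8 mRNA was at 17.2 CPM in ICM and 17.1 in old cells. The edgeR fit without a filter called CXCL8 higher in old than young cells (adjusted p = 3.82e-05) and gave an adjusted p of 0.263 for ICM against young. CXCL1 and CXCL2 had 1.83 footprints each in young and 1.33 each in old cells, the same fractions for both, and none in ICM, which allows up to 8.56 RPM.

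CXCL12 had 36 footprints in young cells (1, 11 and 24 by library), none in any old library and 3 in ICM cells, all in replicate 1. With 3 counts set for the old group, its level was 11.3-fold lower than the young level of 14.6 RPM. That ratio leaves out counting error, the young interval being 10.3 to 20.3 RPM and the upper limit for old 1.60. The ICM level of 8.56 RPM had an interval of 1.77 to 25.03, which covers the young level of CXCL12. CCL2 had 70 footprints in young cells (0, 18 and 52 by library), 132 in old (96, 1 and 35) and 6 in ICM cells (4, 2 and 0). The intervals for young (22.2 to 36.0 RPM) and old cells (47.8 to 67.7) were apart, and the ICM interval was 6.29 to 37.3. Without a filter, edgeR gave CCL2 a log2 difference of 1.13 for old against young (adjusted p = 0.0128) and of -2.02 for ICM against old (adjusted p = 0.0335). In the 5 filtered fits with libraries left out that could test it, the latter was called in 3, and not without ICM replicate 1 (adjusted p = 0.174) or ICM replicate 3 (adjusted p = 0.0529).

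LIF had 79 footprints in young cells (0, 21 and 58 by library), 19 in old (11, 1 and 7) and 6 in ICM cells (2, 4 and 0). The old interval of 4.95 to 12.8 RPM lay below the young one of 25.5 to 40.1, and the ICM interval of 6.29 to 37.3 met both. Without a filter LIF was called lower in old than young cells by edgeR (-1.73, adjusted p = 0.0052). With young replicate 1 and old replicate 2 left out, CCL2 and LIF passed the filter, and old against young was 1.16 for CCL2 (adjusted p = 0.007 by edgeR) and -1.83 for LIF (adjusted p = 0.00304 by edgeR).

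The interleukins gave the least. IL6 had 29 footprints in young cells (1, 9 and 19 by library), 11 in old (7, 1 and 3) and 3 in ICM cells (3, 0 and 0), with intervals of 7.90 to 16.9, 2.38 to 8.52 and 1.77 to 25.03 RPM that overlapped. IL1B had 9 in young cells (0, 4 and 5), 8 in old (5, 0 and 3) and 2 in ICM cells (0, 2 and 0). IL1A had 3 in young cells (0, 1 and 2) and none in the 6 old and ICM libraries, which allows up to 1.30 and 8.56 RPM. At this depth the edgeR fit without a filter called none of IL6, IL1A and IL1B in any of the 3 comparisons (0 at adjusted p and 0 at unadjusted p under 0.05). Overlap of intervals is not a test of the difference. For IL6 in old against young that fit gave -1.14 (unadjusted p = 0.077), beside -1.30 in the mRNA, so that a fall in footprints was neither called nor excluded.

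**Figure D4:**
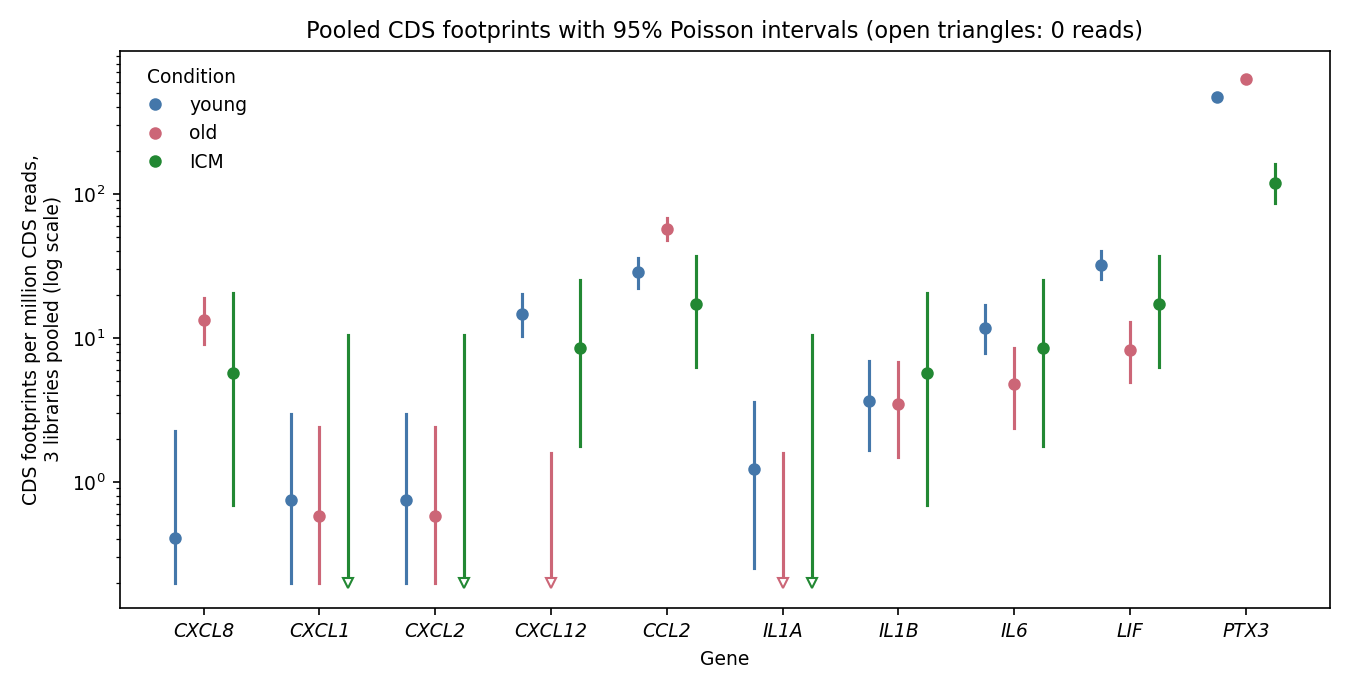
CDS footprints of the 10 genes (x axis) as RPM on a log axis, pooled over the 3 libraries of a condition, with exact 95% Poisson intervals. Open triangles stand for 0 reads, drawn at the foot of the axis. CXCL8 and CCL2 are higher in old than young cells without overlap of intervals, CXCL12 and LIF are lower, and the ICM intervals are widest because those libraries held 350259 reads.

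PTX3 had 25, 346 and 792 footprints in the young libraries, 996, 33 and 415 in the old and 20, 8 and 14 in the ICM libraries. Scaled to depth these were 495 to 553 CPM in young, 664 to 852 in old and 98.5 to 320 in ICM cells, with no overlap. PTX3 footprints fell by 1.93 in ICM against young cells (SE 0.29, adjusted p = 4.55e-06 by edgeR), where 26.6% of the 4643 genes tested were called, and ICM against old was -2.46 (SE 0.29, adjusted p = 2.97e-08 by edgeR), where 13.4% were called. Old exceeded young by 0.53 (SE 0.19, adjusted p = 0.0292 by edgeR), where 36.3% were called. That last call was lost with DESeq2 (adjusted p = 0.245), with the replicate number as a block (0.0983), with no filter (0.113), with counts thinned to the shallowest library (0.59) and when any of 5 of the 6 libraries compared was left out, the exception being old replicate 2.

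Translational efficiency, footprints relative to mRNA, was tested over all 18 libraries for PTX3 only. Its difference was 0.47 for ICM against young (95% interval -0.19 to 1.14, adjusted p = 0.499 by edgeR), 0.21 for old against young (-0.19 to 0.61, adjusted p = 0.674 by edgeR) and 0.26 for ICM against old (-0.39 to 0.92, adjusted p = 0.844 by edgeR). None was called, and 2.45%, 1.45% and 0.260% of the 4618 genes tested were called in these comparisons, which is 113, 67 and 12 genes. The ICM values of PTX3 efficiency rested on ICM replicate 3, without which they were -0.04 against young and -0.19 against old. CCL2 and LIF could be tested when libraries of low CDS share or an ICM library were left out, and their efficiency was called in none of these fits (lowest adjusted p = 0.202 for CCL2 and 0.479 for LIF by edgeR).

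Other secreted factors and the partners of these genes are described from lists of named genes. Of 32 other cytokines and chemokines, 17 could be tested in the mRNA. In ICM against young cells 8 rose and 6 fell (median 0.37), in old against young 7 rose and 5 fell (median 0.15), and in ICM against old 11 rose and 5 fell (median 0.56), beside medians of -0.01 over all genes. For these and the lists that follow, the shares of all genes called up and down were 34.9% and 36.1% in ICM against young, 32.4% and 33.7% in old against young and 30.7% and 32.6% in ICM against old. CXCL3, the other copy beside CXCL1 and CXCL2, rose by 5.99 in ICM and 2.99 in old cells. IL32, an inflammatory cytokine of primates, had a log2 change of -4.78 in ICM cells, with 1.37 ± 0.389 CPM there beside 38.9 ± 7.04 in young and 46.5 ± 4.38 in old cells (SD, n = 3). Its footprints were at 60.5 ± 16.3 CPM in young, 80.5 ± 1.58 in old and 39.5 ± 46.9 in ICM cells (SD, n = 3). The ICM libraries ran from 0 to 91.3 CPM, which covers the young level, so that these footprints neither show nor exclude such a fall. CSF2, which encodes the growth factor GM-CSF, had 7 reads in young, 78 in old and 0 in ICM cells. With 3 counts set for ICM, it was 2.79-fold lower there than in young and 27.8-fold lower than in old cells. These ratios leave out the counting error of the 7 and 78 reads. CSF2 passed the filter through the old libraries, where it was high. IL18, of the interleukin 1 family, rose by 2.09 in ICM and fell by 2.24 in old cells, a difference of 4.32 between ICM and old. CXCL3 was at 0.134, 1.17 and 9.27 CPM in young, old and ICM cells, and IL18 at 1.12, 0.237 and 4.96. Both were among the genes that passed the filter through the ICM libraries. Such genes entered the counts and medians of this list by being high in ICM cells.

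Among 14 receptors and decoys, 8 could be tested. In ICM against young cells 4 rose and 1 fell (median 1.2, or 0.85 with CXCR4, at 3 counts or fewer in both groups, set at its limit), and in old against young 4 rose and 4 fell (median 0.43). In ICM against old 3 rose and 4 fell (median -0.70). IL6R, the IL6 binding chain, rose by 1.30 in ICM and fell by 0.80 in old cells, and IL1R1, the signalling interleukin 1 receptor, rose by 1.09 and fell by 0.45. The 2 receptors of CXCL12 were higher in old cells. CXCR4 had 61 reads in old, 0 in young and 1 in ICM cells. With 3 counts set for young this was 18.2-fold more in old than young, the counting error of the 61 reads left out. ACKR3, a receptor that removes CXCL12, rose by 4.65 in old and by 2.73 in ICM cells. TLR4, a sensor of bacterial lipid that HMGB1 can also engage, was at 0.0608, 4.86 and 0.218 CPM in young, old and ICM cells. CXCR4 and TLR4 passed the filter only through the old libraries. They thus entered the counts and medians of this list by being high there.

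Of 14 genes of interleukin 1 processing and signalling, 13 could be tested. In ICM against young cells 2 rose and 4 fell (median -0.01), in old against young 2 rose and 3 fell (median 0.12), and in ICM against old 2 rose and 5 fell (median -0.17). GSDMD, which forms the pore through which mature IL1B leaves, fell by 1.86 in ICM and by 1.26 in old cells. CAPN2, a subunit of a protease that cuts IL1A, fell by 0.79 in ICM cells and was 0.08 in old against young (adjusted p = 0.22 by edgeR). IRAK4, a kinase below the receptor, rose by 1.29 in ICM and 0.26 in old cells. IRAK3, an inhibitor of that signal, fell by 2.54 in old cells and was 0.09 in ICM against young (adjusted p = 0.636 by edgeR).

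Genes of cytokine mRNA decay and stability were all testable. Of these 13, 2 rose and 8 fell in ICM against young (median -0.31), 3 rose and 7 fell in old against young (median -0.38), and 5 rose and 7 fell in ICM against old (median -0.22). HNRNPD and KHSRP, which bind AU-rich elements and promote decay, fell by 1.92 and 0.84 in ICM and by 1.51 and 0.45 in old cells. DUSP1, the phosphatase that switches off p38, rose by 1.23 in ICM and 0.86 in old cells. The decay factor ZFP36 was 0.21 in ICM against young (adjusted p = 0.0669 by edgeR) and fell by 0.38 in old cells. Its relative ZFP36L1 fell by 0.42 in ICM and rose by 0.47 in old cells, and ZFP36L2 did the reverse, with 0.33 and -0.52.

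Of 18 transcription factors and feedback regulators of cytokine genes, 17 could be tested. In ICM against young cells 6 rose and 8 fell (median -0.33), in old against young 6 rose and 7 fell (median -0.08), and in ICM against old 5 rose and 8 fell (median -0.27). EGR1, an immediate early factor, fell by 3.50 in ICM and 1.53 in old cells. ATF3, a stress-induced factor that can repress cytokine genes, rose by 3.28 in ICM and 1.22 in old cells. HMGA2, a chromatin protein of senescence foci, fell by 2.79 in ICM and rose by 1.24 in old cells, a difference of -4.03 between ICM and old. Of the NF-kappaB and C/EBP genes, named here after their values were seen, RELB fell by 2.27 in ICM and 0.98 in old cells, NFKB1 fell by 1.23 and 0.97, and CEBPB rose by 1.08 in ICM cells and was 0.12 in old against young (adjusted p = 0.26 by edgeR).

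All 10 genes carried at least 1 ATTTA, the core of an AU-rich element, in the 3′ UTR of their canonical transcript. The count ran from 1 in CCL2 to 10 in CXCL2, where the median of 18969 coding genes was 2. With that median, carrying at least 1 did not set these genes apart. Per kilobase of 3′ UTR, IL6 (14.1) and CXCL2 (14.0) were densest and LIF (2.19) sparsest, all 10 above the median of 1.54 over coding genes. The stricter letters TTATTTATT, which ZFP36 proteins are known to prefer, were in 5 of the 10, 5 times in CXCL2, 3 in CXCL1, 2 each in IL1B and LIF and once in CXCL8, and in 8.50% of coding genes. Genes with these letters included ones that rose (CXCL8, CXCL1, CXCL2) and ones that fell (IL1B, LIF) in ICM cells.

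For 8 of the 9 genes past the mRNA filter, the pair of other genes with the most similar level across the 9 mRNA-seq libraries is given as a description, since all points share libraries and conditions. PTX3 ran with LMCD1 and OXTR (Pearson's r of log2(CPM + 1) = 1.00 for both), OXTR being at 28.4, 46.8 and 0.898 CPM in young, old and ICM cells. CXCL12 ran with KCNJ8 and AGTPBP1 (r = 0.996 and 0.994), LIF with MAP3K14 and NXN (0.995 and 0.994), and CXCL8 with PORCN and RABGGTA (0.990 and 0.989). CCL2 ran with PCMT1 and VKORC1 (0.987 and 0.986), and IL6 with FGL2 and PSMB8 (0.981 and 0.979). The scarce CXCL2 and CXCL1 had lower values, 0.942 with C9orf129, 0.941 with ATXN2, and 0.913 with CABP7 and 0.911 with TSTD3.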

How the data were processed

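Estimated counts per gene symbol, deposited by the authors for 18 libraries of IMR90 (3 per condition and assay), were the starting point. Some are fractions, whose origin was not stated, and were rounded. Ribo-seq counts were taken over the CDS, and mRNA-seq counts over both UTRs and CDS together. Per the labels the processing notes name STAR, featureCounts, DESeq2, deepTools and the build GRCh37, with no role given. The labels call the mRNA libraries total RNA, whereas the study's methods describe poly(A) enrichment.

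Genes were filtered with filterByExpr, scaled with TMM and tested with edgeR 4.0.16 (quasi-likelihood, Benjamini-Hochberg over all genes tested, adjusted p under 0.05) in one fit per assay over 9 libraries. CPM values used the same scaling. Translational efficiency was the interaction of condition and assay over 18 libraries, with the lysate as a block. The study used anota2seq, which was not run here. Alternatives were DESeq2 1.42.0, RLE scaling, other filters, a replicate block, thinned counts, CDS reads only and leaving out libraries. The edgeR fits were tested on simulated counts. Motifs, sequences and annotation came from RefSeq and from GENCODE 44 on GRCh37.

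The members and lists were chosen with earlier results of these data known. Named from each other list were the 3 genes with the largest mRNA change among those called in ICM against young and in ICM against old. Similar genes were the 2 non-members of at least 5 CPM with the highest Pearson correlation of log2(CPM + 1). Those of IL1B are not reported here. No pair of libraries held identical values.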

Additional observations from a re-analysis of the deposited data

How the results depend on the processing

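All mRNA member counts against young cells and every translational efficiency count (0 members called, with and without the block) stayed within 1.5 times the values given. The 4 members called in the mRNA of ICM against old became 5 to 7 when single libraries were left out. Of all genes, 7664 of 13269 to 8139 of 13298 were called in those fits. The 1 member called in Ribo-seq of old against young became 0 with DESeq2, the replicate block or thinned counts (530, 653 and 190 of all genes called). That count became 4 with no filter (2044 of 13714 genes called) and 3 with only the 2 groups fitted (3142 of 7521). It was 3 without both libraries of low CDS share (2154 of 8113), chosen after seeing the data, and 0 to 3 with single libraries left out (516 to 2160 genes called). The 1 in ICM against old became 2 with no filter (801 of 13714 genes called) and 2 without both libraries of low CDS share (873 of 8113). With single libraries left out it was 1 to 2 (332 to 924 genes called). Values near 0 changed sign. CXCL8 in the mRNA of ICM against old, -0.00016, was 0.0103 with DESeq2, 0.0049 with RLE scaling, 0.0235 with a mean of at least 50 counts, 0.0168 with only the 2 groups fitted, 0.0497 with the replicate block and -0.24 to 0.51 with single libraries left out. CXCL1 in that comparison ranged from -0.33 to 0.39, and PTX3 translational efficiency from -0.0378 to 0.84 in ICM against young and -0.19 to 0.62 in ICM against old, with single libraries left out. The cause was not tested.

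Over all genes, Ribo-seq calls ranged from 288 to 1786 (1236 as reported) for ICM against young, 190 to 3142 (1685) for old against young and 194 to 1020 (623) for ICM against old, and efficiency calls from 34 to 318 (113), 18 to 462 (67) and 3 to 61 (12). Same-numbered libraries of different conditions did not deviate together (correlations -0.0928 to 0.129 in mRNA-seq, 0.0021 to 0.0387 in Ribo-seq), so those numbers were not taken as pairs. The mRNA-seq and Ribo-seq libraries of a lysate (-0.0711 to 0.119) stayed a block in the efficiency fit because the lysate was divided between them. The replicate block ended the PTX3 footprint call of old against young (adjusted p = 0.0983 by edgeR). Depth limited the footprints, the 3 ICM libraries holding 46239 to 225041 CDS reads.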
